A study of Mus musculus with 2 samples.

Results

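The microRNAs (miRNAs) miR-199 and miR-214 were followed in vesicles released by 3T3-L1 cells, a mouse preadipocyte line that becomes lipid-laden adipocytes after hormonal induction. Of the 567 mouse miRNAs on the array, 3 entries were chosen by name, mmu-miR-199a-5p, mmu-miR-199b and mmu-miR-214, without the starred entries of the other hairpin arm (the species prefix mmu is dropped below). They were read by 6 of the 1672 mouse miRNA probes and by 60 of the 11340 mouse miRNA spots on each array. Vesicles were spun down by ultracentrifugation from medium that the cells had conditioned for 48 h, in an early window (day 2-4) and a late window (day 8-10). In both windows the cells had received 0.5 mM 3-isobutyl-1-methylxanthine, 0.25 µM dexamethasone and 10 µg/ml insulin as inducers, and the medium held 10% fetal calf serum. Each window was represented by 1 array, labelled from 100 ng of total RNA, so the differences have no replicates behind them and no test could be made. Errors are the standard deviation (SD) or standard error (SE) over the spots of an array and cover the technical spread between spots. The 2 arrays were part of 1 slide, and the window cannot be told apart from the preparation and hybridisation of its sample. Nor can RNA from the serum be told apart from RNA of the cells, or fewer vesicles or cells of a type from less of a miRNA in each.

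miRNAs are short RNAs that pair with messenger RNAs, mainly through the seed near their 5′ end, and lower their translation and stability. Mir199a-2 and Mir214 are transcribed together from the noncoding gene Dnm3os, which runs antisense inside Dnm3, a gene of the dynamin family of membrane-fission GTPases. The transcription factor Twist1 is a known activator of this transcript. miR-199 and miR-214 are known as miRNAs of mesenchymal cells, fibroblasts, chondrocytes and osteoblast precursors among them, and are studied in fibrosis.

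The mature sequences are shown because the array entries do not map one to one to genes. In each line the seed, bases 2 to 8 counted from the 5′ end, is in capitals, and the sequences are from RefSeq (GRCm38.p6).
miR-199a-5p: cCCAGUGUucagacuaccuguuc
miR-199b: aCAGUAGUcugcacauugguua
miR-214: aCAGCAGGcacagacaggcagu
The array entry miR-199b is the 3p arm. Its 22-base sequence is the same in 3 mouse genes, Mir199a-1, Mir199a-2 and Mir199b, and the files list miR-199a-3p as a second name of these probes. miR-199a-5p, of 23 bases, comes in 1 form from 2 genes, Mir199a-1 and Mir199a-2. miR-214, the 3p arm with 22 bases, has 1 gene. The 3 seeds differ, so these miRNAs fall into 3 seed groups. In the RefSeq table the seed of miR-214 is shared by miR-761 alone (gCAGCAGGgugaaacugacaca), while the other seeds are held by no miRNA outside the miR-199 genes.

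RefSeq places the genes at 3 sites of GRCm38.p6. Mir199a-2 lies at chr1:162217814-162217923 and Mir214 at chr1:162223368-162223477, both on the plus strand and both within Dnm3os at chr1:162217623-162225550. Mir199a-1 lies within Dnm2 on chromosome 9, and Mir199b within Dnm1 on chromosome 2. The hairpins of the shared transcript are shown with both mature arms in capitals.
Mir199a-2: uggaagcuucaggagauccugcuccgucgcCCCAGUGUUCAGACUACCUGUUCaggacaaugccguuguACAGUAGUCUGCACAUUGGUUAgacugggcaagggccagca
Mir214: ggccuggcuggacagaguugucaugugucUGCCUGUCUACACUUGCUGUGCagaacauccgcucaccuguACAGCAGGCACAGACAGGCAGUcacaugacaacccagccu
Both arms of Mir199a-2 are thus read by members, the 5p arm by miR-199a-5p and the 3p arm by miR-199b, whereas Mir214 is read through its 3p arm. The arrays also hold its 5p arm as miR-214*.

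**Figure D1:**
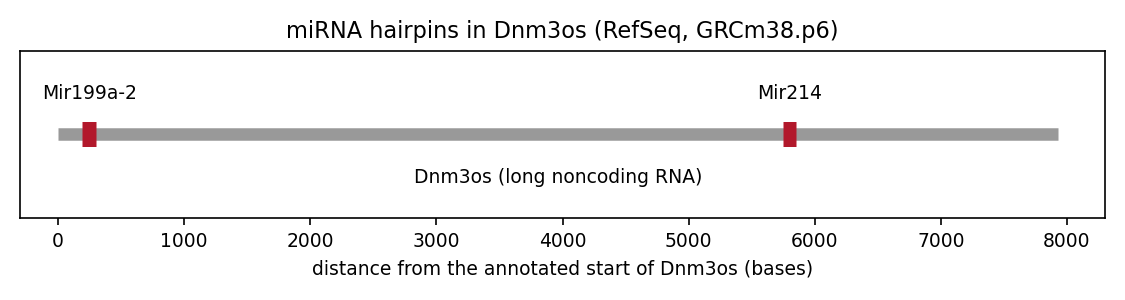
The map shows the noncoding gene Dnm3os (grey, 7928 bases) with the hairpins Mir199a-2 and Mir214 (red, 110 bases each) against the distance in bases from the annotated start of Dnm3os. Mir199a-2 begins 191 bases and Mir214 5745 bases after that start.

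The files give each probe a position in a genome build that is not named in the sources used here. Over the 454 probes whose miRNA has the same name and 1 strand in RefSeq, all 454 positions ran against the strand of the miRNA, and none of the 466 matched probes spanned more bases than the mature miRNA. The distance between the 3′ ends of miR-199a-5p and miR-214 was 5593 bases both in the files and in RefSeq, and that between the ends of miR-199a-5p and miR-199b was 38 bases in both. Each probe was therefore read as pairing with the last bases of its miRNA. The bases paired with the longer probe of each entry are in capitals.
miR-199a-5p: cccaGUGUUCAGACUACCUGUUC
miR-199b: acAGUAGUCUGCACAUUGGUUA
miR-214: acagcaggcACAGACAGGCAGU
The second probe of each entry covered 1 base less. The miR-214 probes, with 13 and 12 bases, lay outside the seed, those of miR-199a-5p (19 and 18 bases) reached 4 and 3 of the 7 seed bases, and those of miR-199b (20 and 19 bases) reached 6 and 5. In the files the probes of miR-199a-5p lie on chromosome 1 from 164147979 to 164147997, those of miR-199b from 164148016 to 164148035 and those of miR-214 from 164153578 to 164153590.

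All 6 probes gave brighter spots with day 2-4 vesicles than with day 8-10 vesicles. The processed intensity, in linear units of the scanner software after subtraction of a fitted background surface, is given first, before any scaling between the arrays. Of the 120 member spots, all were called well above background by the scanner software and 1 was called an outlier and left out. Negative control spots of the same arrays lay between -3.21 and 2.70 at day 2-4 and between -3.13 and 2.83 at day 8-10. The lowest member spot, at 6.28, was above that range, and no spot was saturated. Where spots are said not to overlap, technical spots of 1 array are compared with those of the other. After the scaling described below, such separation with lower late spots was seen for 26.5% of the 279 probes detected on both arrays. The share before scaling was not counted.

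miR-214, the 3p arm of Mir214, showed the largest difference of the members. Its 13-base probe ranged from 281 to 346 over 10 spots at day 2-4, with a median of 304, and from 81.8 to 95.1 at day 8-10, with a median of 86.3. The 12-base probe ranged from 98.0 to 111 with a median of 104 at day 2-4, and from 26.7 to 32.2 with a median of 30.7 at day 8-10. On either probe the highest late spot was well under the lowest early spot. The probe means were 308 ± 18.9 (SD, n = 10 spots) against 87.5 ± 4.78, and 105 ± 4.28 against 30.0 ± 1.87. The unscaled signal was thus 3.52 and 3.50 times as high at day 2-4, so both probes gave nearly the same ratio.

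miR-199a-5p, the 5p arm of the miR-199a hairpins, was lower at day 8-10 on a bright and on a dim probe. The 19-base probe ranged from 316 to 353 with a median of 335 at day 2-4, and from 106 to 113 with a median of 111 at day 8-10. The 18-base probe ranged from 24.0 to 30.1 with a median of 27.0 at day 2-4, and from 6.28 to 10.8 with a median of 9.35 over the 9 remaining spots at day 8-10. The spots of the 2 arrays did not overlap on either probe. The means were 332 ± 11.9 against 110 ± 2.70 (n = 10 spots each) for the bright probe and 27.0 ± 1.87 (n = 10) against 9.12 ± 1.45 (n = 9) for the dim one, and the unscaled ratios were 3.01 and 2.96. The dim probe was the noisiest of the set at day 8-10, with an SD of 15.9% of its mean, and the other 11 probe means had SDs below 10%. The spot left out there had an intensity of 18.1, higher than the other late spots of that probe and lower than its early spots.

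miR-199b, the 3p arm shared by 3 genes, had the smallest difference of the members. Its 20-base probe ranged from 584 to 679 with a median of 660 at day 2-4, and from 290.0 to 327 with a median of 308 at day 8-10. Its 19-base probe ranged from 292 to 319 with a median of 303 at day 2-4, and from 124 to 143 with a median of 134 at day 8-10. No late spot reached an early one. The means were 648 ± 33.3 against 308 ± 13.5, and 305 ± 9.26 against 133 ± 5.96 (n = 10 spots each), with unscaled ratios of 2.11 and 2.29.

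**Figure D2:**
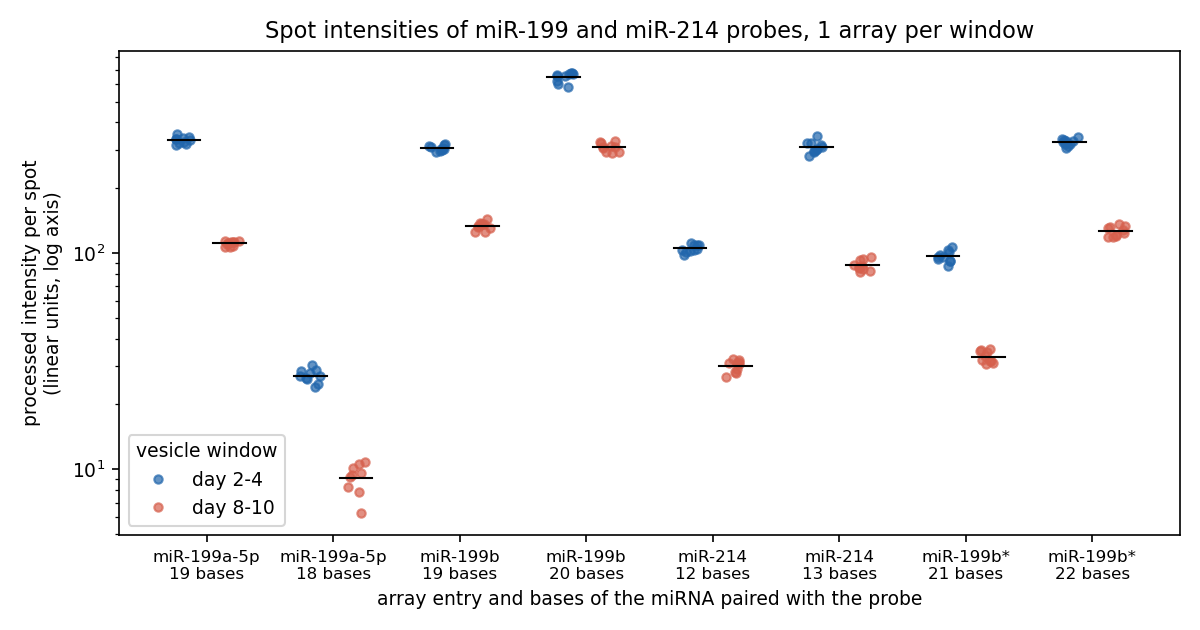
Processed intensity of each spot (points, log axis) for the 6 member probes and both probes of miR-199b*, at day 2-4 (blue) and day 8-10 (red), with the probe mean as a black bar and the 1 outlier spot left out. On every probe shown the late spots lie below the early ones, for example at 81.8 to 95.1 against 281 to 346 for the 13-base probe of miR-214. After scaling, this held for 26.5% of the 279 probes detected on both arrays.

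The arrays were then put on a common scale by dividing each by the 75th percentile of its 279 probes detected on both arrays, which was 108 at day 2-4 and 95.2 at day 8-10. This adds 0.19 to every log2 difference (day 8-10 minus day 2-4). On this scale miR-214 was 3.09-fold lower at day 8-10, with a log2 difference of -1.63 (spot SE 0.025). miR-199a-5p was 2.62-fold lower, with a log2 difference of -1.39 (spot SE 0.042). miR-199b was 1.93-fold lower, with a log2 difference of -0.95 (spot SE 0.020), and so stayed just inside a 2-fold limit that its 19-base probe passed (-1.01) and its 20-base probe did not (-0.89). Over the 6 probes the log2 difference ran from -1.63 to -0.89, and 5 of them were at least 2-fold lower.

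These values were set against all miRNAs measured in the same way. Both arrays detected 145 miRNAs, of which 12 (8.28%) gave a day 8-10 signal at least 2-fold lower and beyond 2 spot SEs, and 2 of the 3 members were among them. At least 2-fold higher were 23 (15.9%), and no member was among those. These shares depend on the scaling, with 29 lower (20%) and 9 higher (6.21%) when the 75th percentile was taken over all mouse miRNA probes, and 21 lower (14.5%) and 15 higher (10.3%) when the median over detected probes was used. Among the 279 probes in common use, 12.5% were at least 2-fold lower. Complete separation of scaled spots in this direction was seen for 6 of 6 member probes and for 26.5% of those 279 probes, and the probes of an entry share their target, so they do not count as separate evidence. Counted from the lowest log2 difference, miR-214 ranked 5, miR-199a-5p 6 and miR-199b 13 among the 145. With normexp miR-199a-5p ranked 12 and miR-199b 9, and with quantile normalization miR-199b ranked 23, while miR-214 ranked 5 under both. The median over the 145 miRNAs was 0.20, and relative to it the members stood at -1.83 (miR-214), -1.59 (miR-199a-5p) and -1.15 (miR-199b). At least 1 array detected 177 miRNAs, and those detected on 1 array only are outside these shares, ranks and median. Among them are miR-503, detected at day 2-4 only (-2.10), and miR-690, detected at day 8-10 only (4.21). In both the undetected signal was raised to the lowest detected probe.

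**Figure D3:**
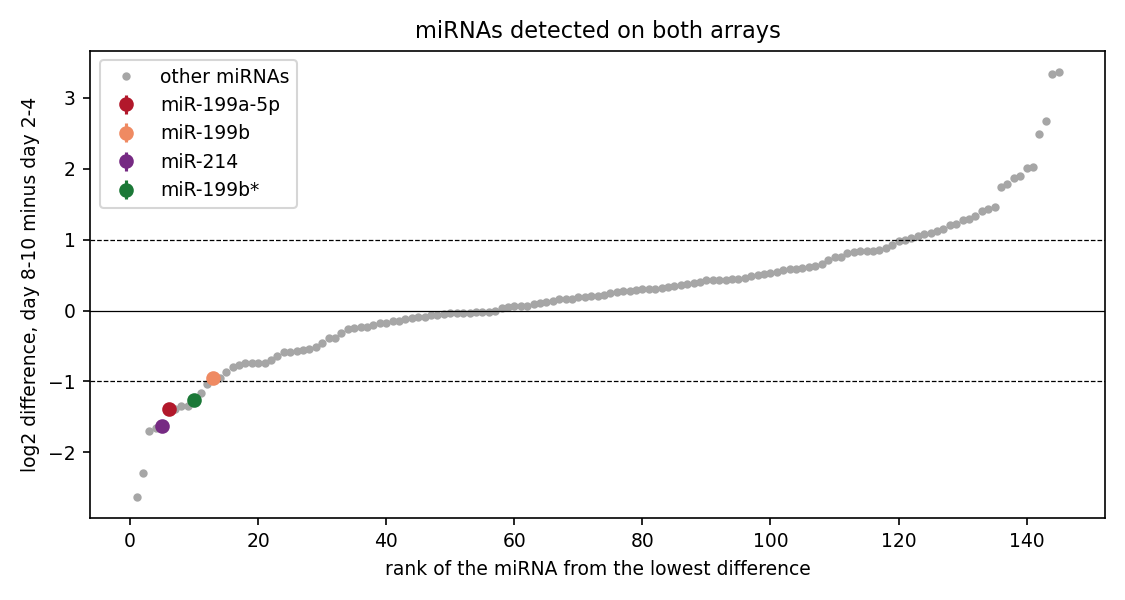
Log2 difference (day 8-10 minus day 2-4) of each of the 145 miRNAs detected on both arrays, ordered from the lowest, with members and miR-199b* in colour (error bars, spot SE, mostly smaller than the symbols) and dashed lines at 2-fold. miR-214 (-1.63), miR-199a-5p (-1.39) and miR-199b* (-1.27) lie below the lower line and miR-199b (-0.95) just above it.

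The members also differed among themselves. The log2 difference of miR-214 was 0.68 more negative than that of miR-199b (difference -0.68, spot SE 0.032) and 0.23 more negative than that of miR-199a-5p (-0.23, spot SE 0.049). Between the arms, miR-199a-5p was 0.44 more negative than miR-199b (-0.44, spot SE 0.047). All of these gaps exceed 2 spot SEs, but the variation between preparations is not known. With normexp background correction miR-199a-5p was 0.16 less negative than miR-199b, and the difference of miR-214 from miR-199b shrank to -0.18.

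The starred entry miR-199b*, the 5p arm of Mir199b, gave a further reading of the family. The files place its probes on chromosome 2 from 32174006 to 32174027. Its 22-base probe ranged from 304 to 343 with a median of 327 at day 2-4, and from 118 to 135 with a median of 125 at day 8-10. Its 21-base probe ranged from 87.0 to 106 and from 30.8 to 36.0, with medians of 95.6 and 32.6. The spots of the 2 arrays again did not overlap, a separation seen after scaling for 26.5% of the 279 probes detected on both arrays. The entry was 2.41-fold lower at day 8-10, with a log2 difference of -1.27 (spot SE 0.024). This lay 0.13 above miR-199a-5p (spot SE 0.049) and 0.32 below miR-199b (-0.32, spot SE 0.031). With normexp both gaps turned, with miR-199b* at -0.81, miR-199a-5p at -0.67 and miR-199b at -0.83, so no order of the arms is read from them. The 5p arms of the miR-199 genes are closely related, and signal shared between their probes was not tested. On the main scale 3 of the 12 lower miRNAs, out of 145 compared, came from this family: miR-214, miR-199a-5p and miR-199b*. miR-199b stayed inside the limit. With normexp miR-214 (-1.01) was the only family entry past 2-fold. The 5p entries may not be separate readings, and whether the family is over-represented was not tested.

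miR-214*, the 5p arm of Mir214, was not well above background in either window. Of the 20 spots of its 4 probes, 1 was called well above background at day 2-4 and none at day 8-10. Its 17-base probe was the brightest, at 4.56 ± 1.07 and 2.89 ± 0.94 (SD, n = 5 spots), and the means of the other 3 lay between 1.05 and 1.88. No fold is given for it. The scanner software's own flag called the entry detected at day 2-4 and not at day 8-10. miR-761, which has the seed of miR-214 but lies elsewhere, had no spot well above background in either window, and of these entries with 1 seed miR-214 alone was detected.

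Other entries with a difference close to that of the members were found by their distance from the members' median of -1.39 over the 2 arrays. The 5 closest were miR-710 (-1.39), miR-483 (-1.34), miR-720 (-1.34), miR-199b* (-1.27) and miR-322 (-1.17). miR-483 lies within the growth factor gene Igf2, and miR-322 is a cell-cycle miRNA of the miR-15/16 group. The value of miR-710 rests on 2 of its 4 probes. With 2 arrays such closeness compares 1 number per miRNA and says nothing of a shared pattern over time.

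A list of 19 other miRNAs known from mesenchymal cells and fibroblasts, without the members, was chosen with earlier results of these data known. It is given as a description and not as independent evidence. On the main scale its detected miRNAs did not show differences of this size. Of the 19, 14 were detected on both arrays, and none of the 14 was at least 2-fold lower (8.28% over all miRNAs) or at least 2-fold higher (15.9%). Their log2 differences ran from -0.74 to 0.76 with a median of 0.069, against 0.20 over all 145. The lowest were miR-99a (-0.74) and miR-221 (-0.57), a miRNA of proliferating cells, and the highest were miR-143 (0.76), a smooth muscle and adipocyte miRNA, and miR-152 (0.59). None of the 14 was as low as miR-199b. The median turned negative under 5 of 11 other settings, and with the 75th percentile taken over all mouse miRNA probes, where it was -0.44, miR-99a (-1.25) and miR-221 (-1.08) passed 2-fold as well. The undetected members of this list were miR-10a, miR-127, miR-145, miR-218 and miR-222.

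A list of 10 adipocyte miRNAs, chosen with earlier results of these data known, is given as a description of the same arrays and not as independent evidence. Of these 10, all were detected in both windows, 9 were at least 2-fold higher at day 8-10 (15.9% over all miRNAs) and none was lower, with log2 differences from 0.76 to 1.90 and a median of 1.37. miR-143 is on this list and on the mesenchymal one. The list holds miR-30c (1.02), miR-30e (1.10) and miR-193 (1.07) but not their relatives miR-30a (0.84), miR-30b (0.60), miR-30d (-0.098) and miR-193b (-0.035), which all stayed within 2-fold, so the count depends on which relatives were listed. The scaled signal of the list, in multiples of the 75th percentile and summed over all probes in use, so that a miRNA with more probes counts more, was 7.21 at day 2-4 and 20.4 at day 8-10. All 10 stayed positive under each of 11 other settings, but the number that were at least 2-fold higher was 2 with the 75th percentile over all probes and 2 with normexp background correction. The list of blood and serum miRNAs had 4 of 7 members detected, 3 of them on both arrays. miR-150, miR-142-3p and miR-142-5p were not detected, and the signal summed in the same way was 13.9 and 14.4. miR-144 was detected at day 8-10 only, with a log2 difference of 0.64 after its early signal was raised to the lowest detected probe. The list members miR-451 and miR-486, of red blood cells, had log2 differences of 0.042 and 0.051, both of which turned negative under other settings. miR-223, of myeloid cells, had -0.23, which was 0.040 with normexp. None of the 4 muscle, 2 endothelial and 1 liver miRNAs was detected, among them miR-1, miR-126-3p and miR-122. The part of these cell sources in the lower miR-199 and miR-214 signal was not tested.

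**Figure D4:**
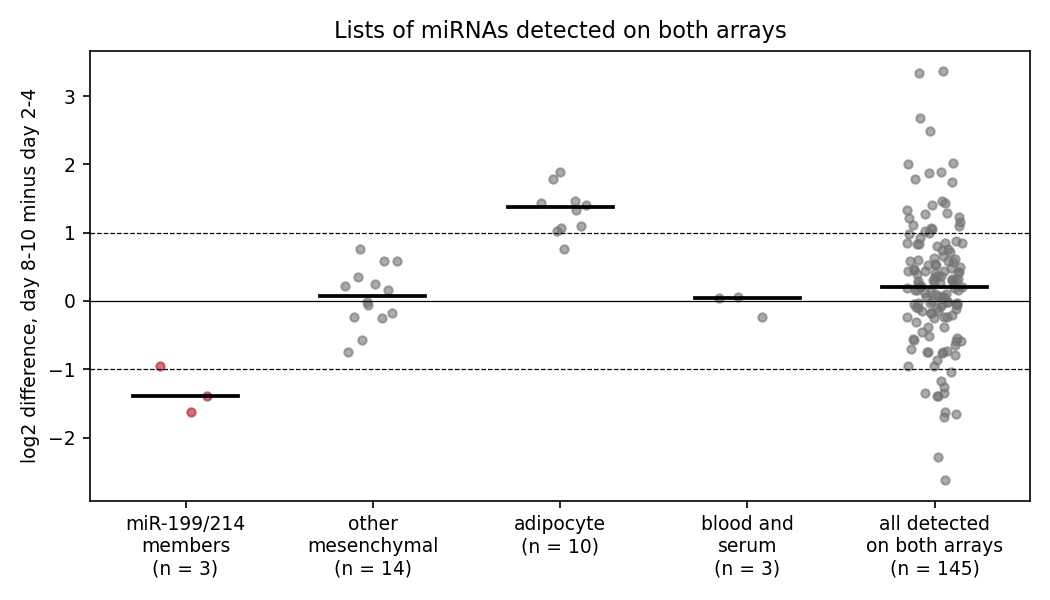
Log2 difference (day 8-10 minus day 2-4) of each miRNA detected on both arrays (points) in the members, the other lists and all 145 miRNAs, with the median as a black bar and dashed lines at 2-fold. The members lie from -1.63 to -0.95, the mesenchymal list from -0.74 to 0.76 and the adipocyte list from 0.76 to 1.90.

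The direction of the members held across the settings tried, which all reprocess the same 2 arrays. Some settings could not change it. Without a floor the values of all 3 members were those of the main setting, and with outlier spots kept only miR-199a-5p changed. All 3 were lower at day 8-10 under each of 11 other settings, with log2 differences from -2.13 to -1.01 for miR-214, from -1.90 to -0.67 for miR-199a-5p and from -1.46 to -0.83 for miR-199b. miR-214 was at least 2-fold lower in all 11, miR-199a-5p in 10 and miR-199b in 5. The exception for miR-199a-5p was normexp background correction, which models background and adds an offset of 50 to each spot. There the dim 18-base probe changed from -1.38 to -0.24 and the bright 19-base probe from -1.40 to -1.10. The gene signal that the scanner software gives per entry, not scaled between arrays, was 273 at day 2-4 and 78.3 at day 8-10 for miR-214. It was 238 and 79.7 for miR-199a-5p, and 630.5 and 294 for miR-199b. This signal is not the plain sum of the probe means above. For miR-199b at day 2-4 it lies below 648, the mean of the 20-base probe alone.

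**Figure D5:**
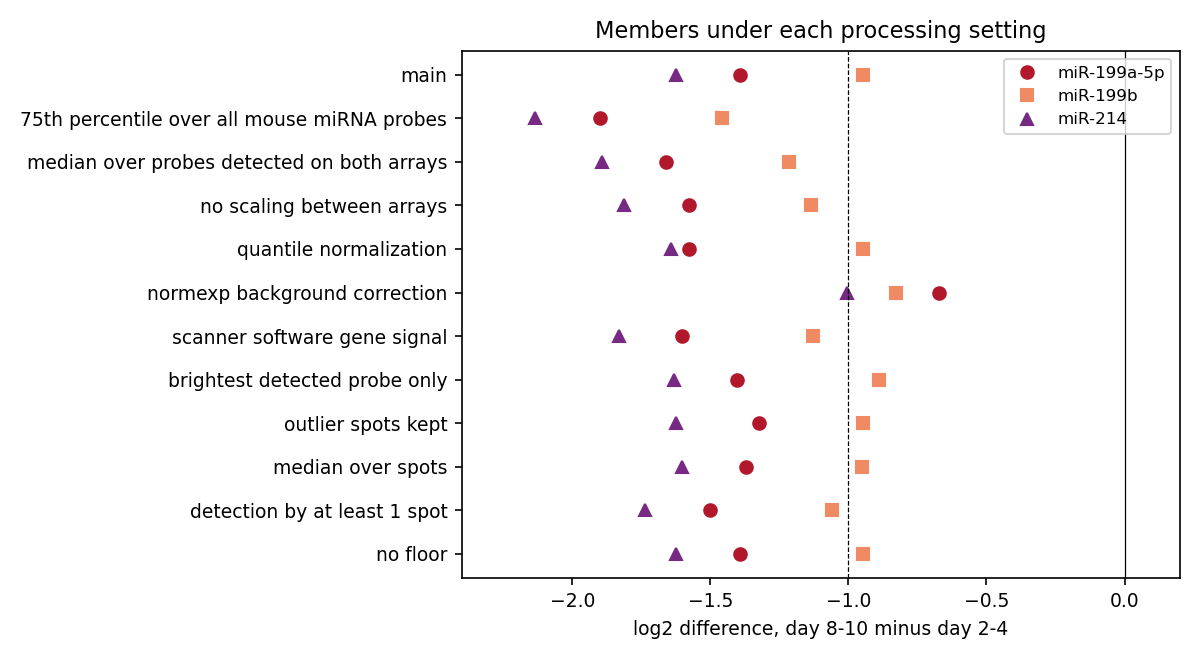
Log2 difference (day 8-10 minus day 2-4) of miR-199a-5p (circles), miR-199b (squares) and miR-214 (triangles) under the main and 11 other processing settings, with a dashed line at 2-fold lower. Each of the 3 stays below 0 in every row, and the order of miR-199a-5p (-0.67) and miR-199b (-0.83) is turned with normexp.

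The region upstream of Dnm3os is shown because Mir199a-2 and Mir214 share this transcript. The window holds 250 bases before and 50 after the annotated start, at chr1:162217373-162217672 on the plus strand (RefSeq, GRCm38.p6). Capitals mark matches to the E-box CANNTG, the motif of Twist1 and related factors, and to the CArG box, the motif of serum response factor.
Dnm3os: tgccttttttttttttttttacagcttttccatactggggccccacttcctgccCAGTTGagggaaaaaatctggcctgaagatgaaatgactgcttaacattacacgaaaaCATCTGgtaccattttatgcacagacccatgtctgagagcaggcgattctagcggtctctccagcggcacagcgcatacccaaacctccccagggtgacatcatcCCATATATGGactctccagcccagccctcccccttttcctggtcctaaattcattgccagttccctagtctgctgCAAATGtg
The E-box pattern CANNTG reads the same on both strands, but the letters of its matches here do not. It was found 3 times, beginning 196 and 138 bases before and 42 bases after the start. At least 1 such match is held by 72.3% of the 32851 RefSeq promoter windows of the same length, and at least 3 by 17.6%. The CArG box was found once, from 33 to 24 bases before the start, with letters that read the same on both strands. A match to this motif is held by 1.63% of the windows. The CArG box was looked for after the window had been read, and no match overlapped another. The vesicle arrays hold no measurement of binding or of Dnm3os itself.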

How the data were processed

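Vesicle RNA of each window was hybridised to 1 single-colour (Cy3) Agilent mouse miRNA array. Per the file headers, the authors made the deposited intensity values with Agilent Feature Extraction 9.5.3.1, as the spot mean less a background surface fitted over the array, and did not normalize the arrays to each other. The deposited series table held the same intensities for 12493 of 12493 spots on each array.

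Control spots and outlier spots were left out, 237 and 249 of the miRNA spots. Detection of a probe needed a flag for well above background on a share of over 0.5 of its spots. Spots were averaged per probe, divided by the array's 75th percentile (over 279 probes that both arrays detected), set to no lower than the lowest detected probe and log2 transformed. An entry's value averages the probes that at least 1 array detected. Differences were called at 2-fold and beyond 2 spot SEs. With 1 array per window there was no test. Of the miRNA spots, 22.9% and 24.3% were well above background. The number of arrays limits the precision. The calculation was tested on simulated arrays with changes larger than those of the members on the main scale. Calls near the 2-fold limit were therefore not tested.

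Sequences came from RefSeq (GRCm38.p6), which held all 3 members. The 3 members, their other hairpin arms, the extremes of the mesenchymal list and the 5 closest entries are named by rule, and miR-761 was added for its seed. Members and lists were chosen with earlier results of these data known. Tools were Python 3.11.15, pandas 2.3.3 and, for normexp, limma 3.58.1. The 11 alternatives changed scaling, background correction, probe or spot summary, outliers, detection or floor.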

Additional observations from a re-analysis of the deposited data

How the results depend on the processing

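No paired analysis was possible because each window has 1 array. The log2 differences of miR-199a-5p, miR-199b and miR-214, in this order, were -1.90, -1.46 and -2.13 with the 75th percentile over all mouse miRNA probes, -1.66, -1.22 and -1.89 with the median over detected probes, -1.58, -1.13 and -1.81 without scaling, -0.67, -0.83 and -1.01 with normexp, -1.60, -1.13 and -1.83 from the gene signal of the scanner software and -1.50, -1.06 and -1.74 with detection by 1 spot. Quantile normalization gave miR-199a-5p -1.58. Of the members, 1 was at least 2-fold lower with normexp, and under the other settings 2 or 3 were. Over all miRNAs, 29 were lower with all probes, 21 with the median and 5 with normexp, and 9, 15 and 5 were higher. Of the mesenchymal list, 2 were lower with all probes and 1 with the median, and its median was -0.44 with all probes. Within-array scaling shifts all miRNAs alike, so under it ranks and gaps between members stay as they were. With normexp and quantile normalization they did not. The ranks of miR-199a-5p, miR-199b and miR-214 were also 7, 17 and 5 from the gene signal and 7, 15 and 5 with the brightest probe. They were 9, 14 and 5 with outliers kept and 8, 16 and 6 with detection by 1 spot, and without a floor miR-199b ranked 15. The gap of miR-199a-5p to miR-199b was -0.51 with the brightest probe and -0.38 with outliers kept. Apart from the common shift under scaling, the cause of the changes between settings was not tested. miR-214* and the dim miR-199a-5p probe gave low signal over background, which limits what can be read from them.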
